A study of Mus musculus with 8 samples.

Results

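Rod photoreceptors carry the light response with a protein cascade that starts at the visual pigment, and the genes described here encode the steps that follow it: the transducin subunits Gnat1, Gnb1, and Gngt1, the phosphodiesterase subunits Pde6a, Pde6b, and Pde6g, and the shut-off proteins Sag, Grk1, and Rcvrn. These 9 genes were taken by symbol out of 21828 genes measured by RNAseq, each with 1 row in all 8 deposited tables. The libraries came from retinas of slc:ICR mice kept under normal feeding, and the labels name neither a treatment nor an altered allele. Whole retinas were sampled at E15 and E18, and retinas of P2, P5, and P8 mice were pooled and sorted with an antibody to Cd73, a surface protein of rod precursors and rods, into a Cd73-positive fraction, Cd73PC, and a Cd73-negative fraction, Cd73NC. Cd73NC holds every cell not sorted as positive and is therefore a mix of cell types, and the step from E18 to P2 Cd73PC combines a change of age with sorting. There was 1 library per condition, so the values below have no replicate error, no test was run, and a difference is described by its size alone.

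In the dark, transducin rests as a trimer of alpha (Gnat1), beta (Gnb1), and gamma (Gngt1) subunits on the disc membranes of the rod outer segment. Activated pigment loads the alpha subunit with GTP, the alpha subunit relieves the catalytic pair Pde6a and Pde6b of the inhibitory subunit Pde6g, and the fall in cyclic GMP closes the cation channel of the outer segment. The pigment kinase Grk1, arrestin (Sag), and the calcium sensor recoverin (Rcvrn), which holds Grk1 back at high calcium, end the response. Most mouse rods are born around birth, and their outer segments grow in the weeks that follow.

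All 9 genes were higher in Cd73PC than in Cd73NC at P2, P5, and P8, and all 9 rose in Cd73PC from P2 to P8. They did not rise as 1 block. Gnb1, Gngt1, Pde6b, Pde6g, and Sag stood at 16.7% to 31.6% of their P8 level by P2, whereas Gnat1, Pde6a, Grk1, and Rcvrn stood at 3.61% to 6.39%. Each multi-subunit protein was split between these early and late sets. Transducin had its alpha subunit and phosphodiesterase had the catalytic subunit Pde6a in the late set. The split depended on the limit chosen. With a limit of 5% of the P8 level, Gnat1 alone was late at P2 and phosphodiesterase was not split. With an FPKM of at least 10 as the limit, Pde6a and Grk1 were late and transducin was not split. Expression is given as FPKM, the number of fragments scaled to transcript length and to the mapped fragments of the library, which allows levels to be compared between genes.

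The sequence upstream of the start site is shown for the 4 genes of the early set that are listed in the RefSeq promoter table, because these genes were already well expressed at P2. The table holds Sag, Gnb1, Pde6b, Gngt1, and Grk1, 5 of the 9 genes, and it has no entry for Gnat1, Pde6a, Pde6g, or Rcvrn. Capitals mark TAATCC, the sequence preferred by the homeodomain factors Crx and Otx2, and TGCTGA, the core of the element bound by Maf family factors such as Nrl, on either strand, so that GGATTA is TAATCC and TCAGCA is TGCTGA read from the other strand. Each line gives 250 bases, 5′ to 3′ on the plus strand and ending at the base before the start site, in build GRCm38.p6: chr1:87803430-87803679 for Sag, chr6:3993758-3994007 for Gngt1, chr5:108388123-108388372 for Pde6b, and chr4:155491111-155491360 for Gnb1.
Sag: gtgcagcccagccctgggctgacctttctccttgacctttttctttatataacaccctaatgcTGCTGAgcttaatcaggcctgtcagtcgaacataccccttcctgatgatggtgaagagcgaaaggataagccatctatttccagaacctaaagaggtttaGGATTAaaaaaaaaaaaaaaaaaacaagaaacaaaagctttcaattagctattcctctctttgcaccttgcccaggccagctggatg
Gngt1: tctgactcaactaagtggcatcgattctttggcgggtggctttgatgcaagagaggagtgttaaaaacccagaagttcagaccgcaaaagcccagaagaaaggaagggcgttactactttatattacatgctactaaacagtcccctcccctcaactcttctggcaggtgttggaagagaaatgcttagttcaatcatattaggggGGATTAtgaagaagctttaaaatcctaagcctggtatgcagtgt
Pde6b: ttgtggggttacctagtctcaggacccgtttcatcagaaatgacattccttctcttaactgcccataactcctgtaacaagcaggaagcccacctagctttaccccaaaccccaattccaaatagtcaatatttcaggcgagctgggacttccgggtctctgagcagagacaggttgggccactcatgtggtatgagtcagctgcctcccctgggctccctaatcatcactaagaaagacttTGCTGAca
Gnb1: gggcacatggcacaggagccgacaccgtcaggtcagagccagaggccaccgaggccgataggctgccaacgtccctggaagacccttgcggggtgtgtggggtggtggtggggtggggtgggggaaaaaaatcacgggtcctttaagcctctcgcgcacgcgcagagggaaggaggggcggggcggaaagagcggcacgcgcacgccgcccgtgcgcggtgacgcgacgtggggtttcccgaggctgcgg
In windows of 300 bases, which add the 50 bases from the start site on, Sag held TGCTGA 187 bases upstream and TAATCC 87 bases upstream of the start site, Gngt1 held TAATCC 44 bases upstream, and Pde6b held TGCTGA 8 bases upstream. Grk1 held TGCTGA 29 bases downstream, and Gnb1 held neither. TAATCC was therefore in 2 of the 5 windows and TGCTGA in 3 of 5, while 7.06% and 19.5% of all 32851 windows in the table held them. The motifs do not overlap each other, and a match of 6 letters is a description of the sequence and not a binding site. Each window matched the NCBI37/mm9 genome exactly once, and its start site was the one in the deposited tables for Sag, Gnb1, Pde6b, and Grk1 and lay 4 bases before it for Gngt1.

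As a check of the sort, Nt5e, the gene of Cd73, was at 97.3, 131, and 124 FPKM in Cd73PC at P2, P5, and P8 and at 2.43, 31.4, and 9.38 FPKM in Cd73NC, so the P5 Cd73NC library had the highest level among the negative fractions. All 7 rod markers listed (Nrl, Nr2e3, Crx, Rom1, Prph2, Rp1, and Reep6) were more than 1.5-fold higher in Cd73PC at each stage. Of all genes tested, 14.5%, 12.3%, and 13% were higher by this limit at P2, P5, and P8. All 6 progenitor markers were more than 1.5-fold lower in Cd73PC at each stage, as were 25%, 27%, and 31.3% of all genes tested at P2, P5, and P8, and their summed level in Cd73PC fell from 388 to 121 and 23.8 FPKM. Of the Müller glia markers, 4 of 5, 5 of 5, and 6 of 6 above the minimum were lower in Cd73PC, with sums of 478, 402, and 319 FPKM in Cd73PC against 1090, 1511, and 1224 in Cd73NC. The 9 bipolar markers summed to 856, 589, and 681 FPKM in Cd73PC and to 543, 1301, and 3092 in Cd73NC. Otx2, which photoreceptors also express, made up most of the Cd73PC sums, and the other 8 summed to 79.0, 97.0, and 328 FPKM in Cd73PC and to 193, 451, and 2540 in Cd73NC. By the 1.5-fold limit, 3 of 4 cone and 3 of 4 microglia and vessel markers tested were higher in Cd73PC at P2. For ganglion cell and amacrine markers this was 1 of 5 and 1 of 3. Lower at P2 were 0, 1, 3, and 2 markers in this order. At P5, 2 of 5, 1 of 6, 0 of 2, and 1 of 2 were higher and 1, 2, 0, and 1 lower. At P8, 3 of 6, 0 of 4, 0 of 2, and 1 of 2 were higher and 0, 1, 0, and 1 lower. Sequencing depth could be read only relative to E18 whole retina and was lowest in E15 whole retina (0.962) and highest in P2 Cd73PC (1.61).

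Transducin alpha, Gnat1 (chr9:107576805-107581923, NCBI37/mm9), was at 1.57 FPKM in E15 and 1.52 FPKM in E18 whole retina. In Cd73PC it was at 13.7, 77.1, and 379.9 FPKM at P2, P5, and P8, and in Cd73NC at 0.651, 5.66, and 27.8 FPKM. Outside Cd73PC, Gnat1 was thus below 2 FPKM before P5, and the P2 Cd73NC library lay below both embryonic ones. Its rise from P2 to P8 in Cd73PC was 27.7-fold on FPKM, the largest of the 9 genes. On FPKM + 1, Gnat1 ranked 4th by this rise among the 10654 genes with an FPKM of at least 1 in all 3 Cd73PC libraries. It rose 5.62-fold from P2 to P5 and 4.93-fold from P5 to P8.

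Transducin beta, Gnb1 (chr4:154865470-154933378), is used by many cell types besides rods, and its profile differed from those of the other 8 genes. It was at 235 FPKM in E15 and 226 FPKM in E18 whole retina, and at 199, 239, and 207 FPKM in Cd73NC. In Cd73PC it was at 557, 1225, and 1809 FPKM at P2, P5, and P8. The 5 libraries that were not Cd73PC thus stayed between 199 and 239 FPKM, and the rise took place in Cd73PC, by 2.20-fold and then 1.48-fold.

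Transducin gamma, Gngt1 (chr6:3944012-3947436), is the gamma subunit of rods. It was listed at 0.284 FPKM in E15 and 2.49 FPKM in E18 whole retina, at 238, 448, and 753 FPKM in Cd73PC, and at 7.71, 38.7, and 49.6 FPKM in Cd73NC. From E18 whole retina to P2 Cd73PC the FPKM was 95.8-fold higher, the largest such step of the 9 genes on FPKM. After P2 it rose least, 3.16-fold by P8, in steps of 1.88-fold and 1.68-fold.

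These different courses changed the ratios between the subunit genes. In Cd73PC, FPKM of Gnb1 over Gnat1 fell from 40.6 at P2 to 15.9 at P5, with 4.76 at P8, and Gngt1 over Gnat1 fell from 17.3 to 5.81 and 1.98. In Cd73NC, Gnb1 over Gnat1 was 306, 42.2, and 7.42, and Gngt1 over Gnat1 was 11.8, 6.85, and 1.78. The beta and gamma transcripts were in excess of the alpha transcript in all 6 sorted libraries, and the excess was smallest at P8 in both fractions.

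The catalytic phosphodiesterase subunit genes differed from each other in level and course. Pde6b (chr5:108817392-108860761) was at 0.0525 FPKM in E15 and 1.67 FPKM in E18 whole retina, at 107, 359, and 639.8 FPKM in Cd73PC, and at 0.460, 33.0, and 32.8 FPKM in Cd73NC. Pde6a was at 0.103 and 0.249 FPKM in E15 and E18 whole retina, at 5.69, 20.4, and 91.6 FPKM in Cd73PC, and at 0.0262, 1.54, and 5.39 FPKM in Cd73NC. Pde6b had reached 56.1% of its P8 Cd73PC level by P5 and Pde6a only 22.3%. From P2 to P5 they rose by similar factors, 3.59-fold for Pde6a and 3.35-fold for Pde6b.

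The inhibitory subunit gene Pde6g (chr11:120308924-120314797) was already measurable in the embryo, at 2.26 FPKM in E15 and 30.8 FPKM in E18 whole retina. It was at 483, 1492, and 2269 FPKM in Cd73PC and at 21.3, 171, and 171 FPKM in Cd73NC. From E15 to E18 it rose 13.6-fold on FPKM, and Pde6b, from a level near 0, 31.9-fold.

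In Cd73PC at P2, P5, and P8 the ratio of Pde6a to Pde6b was 0.0532, 0.0570, and 0.143, and the same ratio was 0.0569, 0.0468, and 0.164 in Cd73NC. The catalytic partners, which form a pair in the rod enzyme, were thus furthest from equal transcript levels at P2 and P5 in Cd73PC. The Cd73NC ratios were also lower at P2 and P5 than at P8, but the P2 ratio rests on Pde6a at 0.0262 FPKM. Pde6g over Pde6b changed less in Cd73PC, from 4.51 to 4.16 and 3.55, and was 46.3 in P2 Cd73NC, where Pde6b was under 1 FPKM, and then 5.18 and 5.19.

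**Figure D1:**
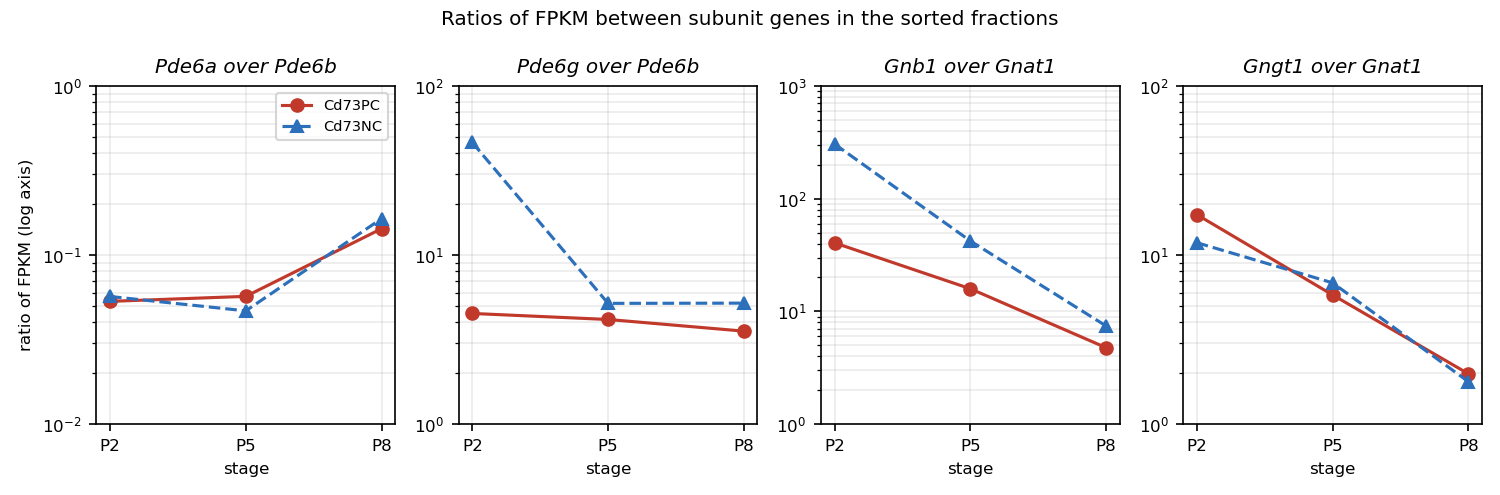
FPKM ratios between subunit genes on log axes at P2, P5, and P8, with circles for Cd73PC and triangles for Cd73NC, 1 library per point. Pde6a over Pde6b rises to 0.143 in Cd73PC at P8, and Gnb1 over Gnat1 and Gngt1 over Gnat1 fall to 4.76 and 1.98.

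Among the shut-off genes, Sag (chr1:89700255-89741732), which encodes rod arrestin, had the highest level. It was at 1.58 FPKM in E15 and 10.1 FPKM in E18 whole retina, at 944, 2642, and 4174 FPKM in Cd73PC, and at 12.9, 221, and 273 FPKM in Cd73NC. Sag ranked 26th of all genes in P2 Cd73PC and 1st in P5 and P8 Cd73PC. The other genes of the group followed at P8 with Pde6g at rank 5, Gnb1 at 8, Rcvrn at 21, Gngt1 at 45, Pde6b at 55, Gnat1 at 115, Pde6a at 649, and Grk1 at 651.

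Grk1 (chr8:13405081-13421949), the pigment kinase, was at 0.0868 and 0.496 FPKM in E15 and E18 whole retina, at 5.69, 29.9, and 91.5 FPKM in Cd73PC, and at 0.326, 6.17, and 6.89 FPKM in Cd73NC. Its Cd73PC values were close to those of Pde6a at P2 and P8 and higher at P5. Rcvrn (chr11:67508828-67516857), recoverin, was at 0.798 and 5.16 FPKM in E15 and E18 whole retina, at 71.5, 436, and 1119 FPKM in Cd73PC, and at 13.5, 77.5, and 100.3 FPKM in Cd73NC. Recoverin is also made by cones and some bipolar cells. Rcvrn had the largest step of the 9 genes from P2 to P5 in Cd73PC, 6.09-fold, and slowed to 2.57-fold from P5 to P8.

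**Figure D2:**
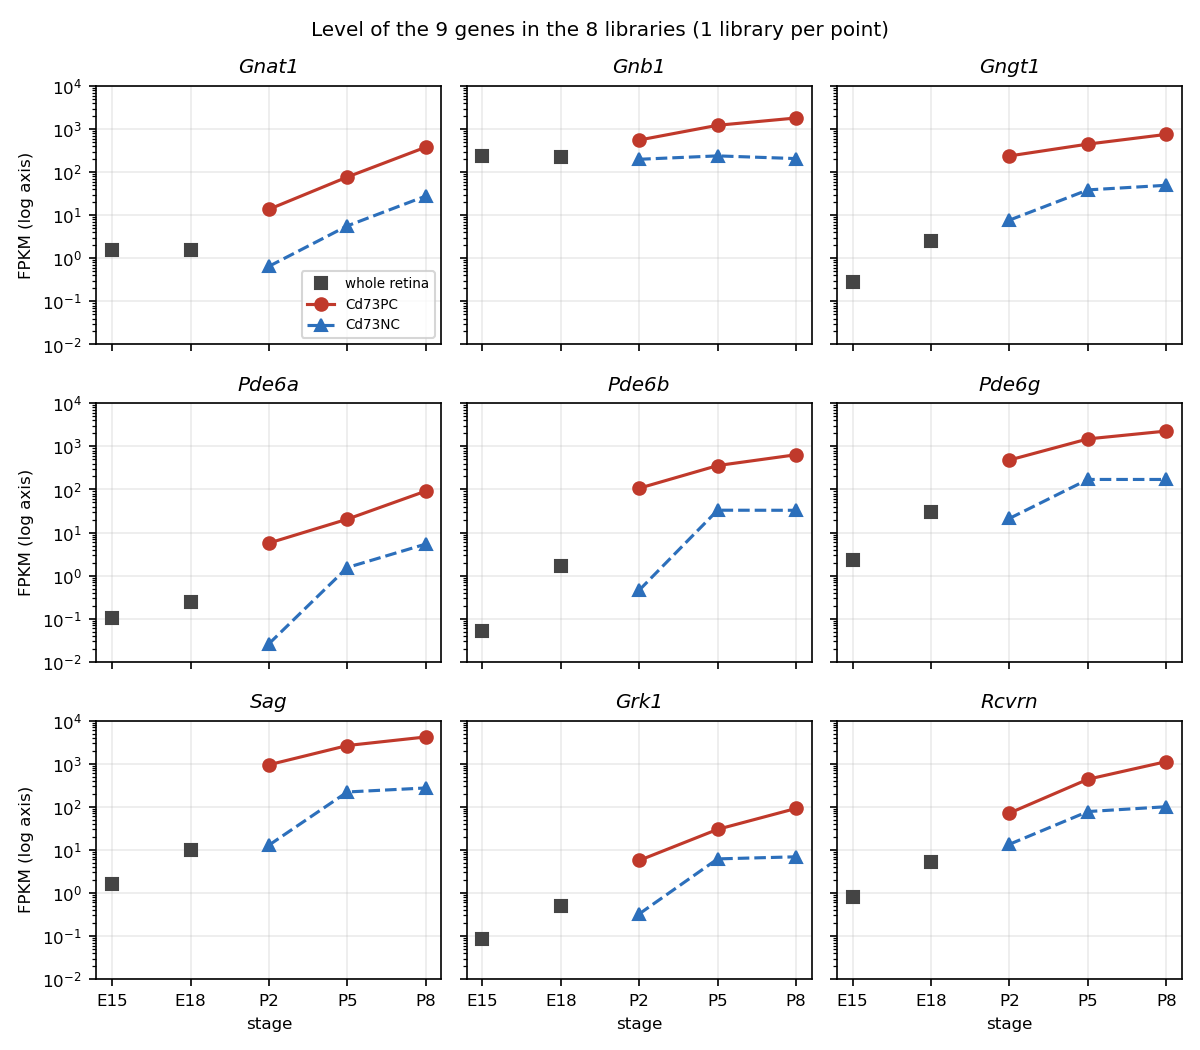
FPKM of the 9 genes on a log axis against stage, with squares for whole retina at E15 and E18, circles for Cd73PC, and triangles for Cd73NC, 1 library per point. Every Cd73PC value lies above the Cd73NC value of its stage, from Gnb1 at P2 (557 against 199) to Sag at P8 (4174 against 273).

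The 9 genes together made up 0.637%, 1.79%, and 3.14% of the summed FPKM in Cd73PC at P2, P5, and P8. They made up 0.0646%, 0.220%, and 0.241% in Cd73NC, and 0.0652% and 0.0738% in E15 and E18 whole retina. Gnb1 accounted for most of the embryonic sums, with 235 of 241 FPKM at E15 and 226 of 279 FPKM at E18. Cufflinks gives a lower and an upper bound for each value, which describe the estimate within a library. Of the 72 values, 42 lay inside their own bounds, 3 below the lower bound, and 27 above the upper bound. An example of the last is Gngt1 in P8 Cd73PC, at 753 FPKM with bounds of 586 and 616. Of the 23021 rows of each library, 1428 (E15 whole retina) to 2162 (P2 Cd73PC) lay above the upper bound. That is a smaller part than among the values of the 9 genes. Values above the bound came from Pde6g (7 libraries), Gngt1, Sag, and Rcvrn (5 each), Pde6b (3), and Gnat1 (2), so the bounds were not used as errors. Non-overlapping bounds served only as an alternative filter on the counts, and that alternative carries the same limit. No exon of the 9 genes shares bases with an exon of another gene in the NCBIM37 annotation.

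The comparison of the fractions asks how far the cascade was restricted to Cd73PC at each stage. At P2, 9 of 9 genes were more than 1.5-fold higher in Cd73PC on FPKM + 1, against 14.5% of the 12336 genes with an FPKM of at least 1 in either library. At P5 it was 9 of 9 against 12.3%, and at P8 9 of 9 against 13%. The median log2 difference of the 9 genes was 3.16, 3.12, and 3.73 at P2, P5, and P8, beside medians of -0.14, -0.18, and -0.23 over all genes tested. Pde6b and Sag were the furthest apart at P2, with log2 differences of 6.21 and 6.09 that ranked 3rd and 4th of all genes tested. Gnb1 was the closest at P2, with 1.48, and at P8, with 3.12, and Grk1 was the closest at P5, with 2.11. The spread of the 9 log2 differences narrowed from 1.48 to 6.21 at P2 to 3.12 to 4.24 at P8.

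Onset was set at the earliest of E15, E18, and the Cd73PC libraries in which a gene had at least 10% of its P8 Cd73PC level. Gnb1 passed this limit at E15, at 13.0%. Gngt1, Pde6b, Pde6g, and Sag passed it at P2, and Gnat1, Pde6a, Grk1, and Rcvrn at P5. All 7 rod markers passed it at P2, from 11.3% for Reep6 to 83.3% for Nr2e3, so 4 of the 9 cascade genes came later than every rod marker listed at this limit. Between the highest late gene, Rcvrn at 6.39%, and the lowest early gene, Pde6b at 16.7%, no member lay near the limit at P2. The split depended on the limit. At 5%, 8 genes had passed it by P2 and Gnat1 alone came later. At 20%, 4 had, as Pde6b then came later together with the rod marker Reep6. With an FPKM of at least 10 as the limit, 7 had, and Pde6a and Grk1 came later. The share of all genes past each limit by P2 was not computed, so these counts have no baseline beyond the rod markers. Within the early set at P2, Gngt1 (31.6%) and Gnb1 (30.8%) were close together, followed by Sag (22.6%), Pde6g (21.3%), and Pde6b (16.7%). Within the late set, Rcvrn (6.39%), Grk1 (6.22%), and Pde6a (6.21%) were close together and Gnat1 (3.61%) was lower. At P5 the late genes had reached 39.0% (Rcvrn), 32.7% (Grk1), 22.3% (Pde6a), and 20.3% (Gnat1), and the early genes 56.1% to 67.7%.

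**Figure D3:**
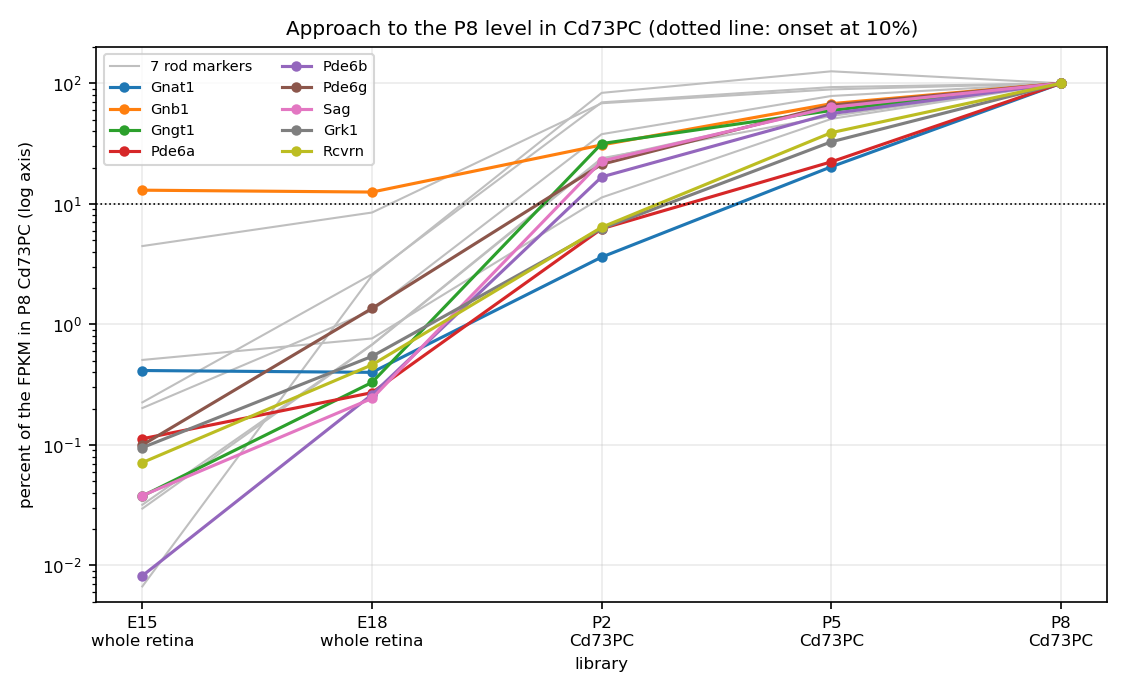
FPKM as percent of the P8 Cd73PC level on a log axis in E15 and E18 whole retina and in Cd73PC at P2, P5, and P8, with 1 coloured line per gene, grey lines for 7 rod markers, and a dotted line at 10%. At P2, 5 genes lie at 16.7% to 31.6% and Gnat1, Pde6a, Grk1, and Rcvrn lie at 3.61% to 6.39%.

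In the embryo, 5 of the 7 genes that could be compared rose more than 1.5-fold on FPKM + 1 from E15 to E18, against 7.59% of all genes tested. These were Pde6g, Sag, Rcvrn, Gngt1, and Pde6b, with log2 differences of 3.28, 2.11, 1.78, 1.44, and 1.34, while Gnat1 (-0.03) and Gnb1 (-0.05) stayed within the limit. Pde6a and Grk1 were under 1 FPKM at both ages. From E18 whole retina to P2 Cd73PC, 9 of 9 genes were more than 1.5-fold higher, against 14.7%. Sag (log2 difference 6.41) and Gngt1 (6.10) ranked 1st and 2nd of the 12735 genes in this step, Pde6b (5.34) ranked 5th, and Gnb1 (1.29) was the lowest of the 9.

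From P2 to P5 in Cd73PC, 9 of 9 genes rose more than 1.5-fold, against 5.92% of 11909 genes, with a median log2 difference of 1.68 (all genes, -0.15). From P5 to P8, 8 of 9 did, against 5.94% of 11634 genes, with a median of 0.83 (all genes, -0.06), and Gnb1 at 1.48-fold stayed within the limit. At a threshold of 2-fold, 4 of 9 rose from P5 to P8, and these were the late genes Gnat1, Pde6a, Grk1, and Rcvrn. The share of all genes past 2-fold was not computed, so this count has no baseline. The late set was defined by a low percent of the same P8 level, so its match with the larger rises is partly built in. The earlier and the later step share the P5 library, so a high or low value in that library moves them in opposite directions. Expressed per day, the log2 rise lay between 0.30 (Gngt1) and 0.86 (Rcvrn) in the earlier step and between 0.19 (Gnb1) and 0.76 (Gnat1) in the later one. The later step was the smaller for 8 genes, with differences between the steps from -0.12 (Gnat1) to -1.23 (Rcvrn) on the log2 scale, and the larger for Pde6a, by 0.43. The fold over both steps is the inverse of the percent at P2 that separated the early and late sets, so it describes the same values. It was 27.7 (Gnat1), 16.1 (Pde6a), 16.1 (Grk1), and 15.6 (Rcvrn) on FPKM for the late genes, which ranked 4th, 12th, 13th, and 8th of 10654 genes on FPKM + 1, and 5.98 (Pde6b), 4.70 (Pde6g), 4.42 (Sag), 3.25 (Gnb1), and 3.16 (Gngt1) for the early genes, at ranks 46, 71, 80, 150, and 159.

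**Figure D4:**
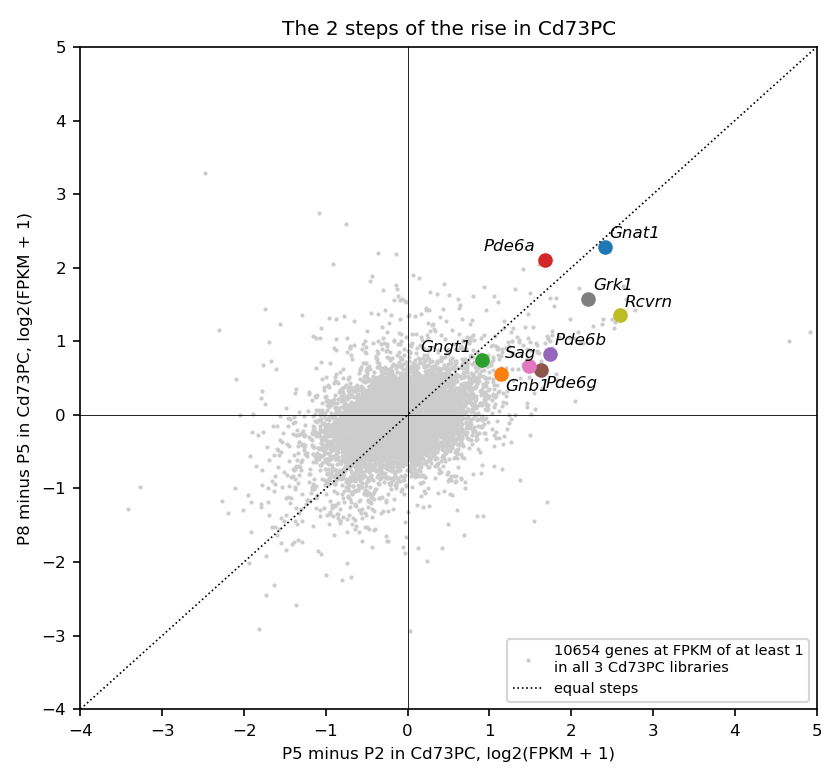
Difference of log2(FPKM + 1) from P2 to P5 in Cd73PC on the horizontal axis and from P5 to P8 on the vertical axis, with grey points for 10654 genes and coloured points for the 9 genes. All 9 lie right of and above 0, and Pde6a alone among them lies above the dotted line of equal steps.

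Markers of other cells moved in Cd73PC over the same steps. From P5 to P8, 8 of 9 bipolar markers rose more than 1.5-fold in Cd73PC, against 5.94% of all genes tested. Even so, all 9 were more than 1.5-fold lower there than in Cd73NC at P8, against 31.3% of all genes tested. Grm6 of ON bipolar cells, for example, was at 14.3 FPKM against 162. More than 1.5-fold falls in Cd73PC were found for 5 of 6 progenitor markers from P2 to P5, against 15.2% of all genes tested, and for 6 of 6 from P5 to P8, against 8.54%. None of the rod, bipolar, Müller, or progenitor markers was at 0 in a Cd73PC library. The part of these cells in the rise of the cascade genes was not tested. In bulk libraries, a smaller number of cells of a type and less RNA per cell cannot be told apart.

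The level of each gene in Cd73NC was expressed as a percent of its level in Cd73PC of the same stage, on FPKM. At P2, these percents were lowest for Pde6b (0.430%), Pde6a (0.459%), and Sag (1.36%). Gngt1 (3.24%), Pde6g (4.41%), Gnat1 (4.74%), and Grk1 (5.73%) followed, and Rcvrn (18.9%) and Gnb1 (35.7%) were the highest. At P2 the early and late sets were thus not separated by this measure, as both phosphodiesterase catalytic genes were under 1% although Pde6b was early and Pde6a late. The median was 4.41%, and it was 2.88% over the 7 rod markers. Gnat1, Pde6a, Pde6b, and Grk1 were under 1 FPKM in P2 Cd73NC, so their percents at P2 depend on the pseudocount.

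At P5 the percents were higher than at P2 for 7 of 9 genes and spanned 7.34% (Gnat1) to 20.6% (Grk1), with a median of 9.19%. The increase was 21.4-fold for Pde6b, 16.4-fold for Pde6a, and 6.13-fold for Sag, while Gnb1 went from 35.7% to 19.5% and Rcvrn from 18.9% to 17.8%. The value of Pde6a rests on 0.0262 FPKM in P2 Cd73NC. With 1 added to both values, 5 of 9 genes were higher at P5 than at P2, the median went from 11.2% to 11.5%, and Pde6a (15.3% to 11.9%) and Gnat1 (11.2% to 8.52%) went down. At P8 the percents were lower than at P5 for 9 of 9 genes, although by under 1% of the value for Gnat1 (7.34% and 7.33%), and spanned 5.13% (Pde6b) to 11.4% (Gnb1), with a median of 7.33%. The 7 rod markers went the same way, up by P5 in 7 of 7 and down by P8 in 7 of 7, with medians of 13.9% and 7.59%. Their summed level in Cd73NC was 180, 1366, and 874 FPKM, and Nt5e itself was highest in the P5 Cd73NC library among the negative fractions. The share of all genes whose percent rose by P5 or fell by P8 was not computed, so these counts have no baseline beyond the rod markers. The part of rods in Cd73NC in these percents was not tested.

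**Figure D5:**
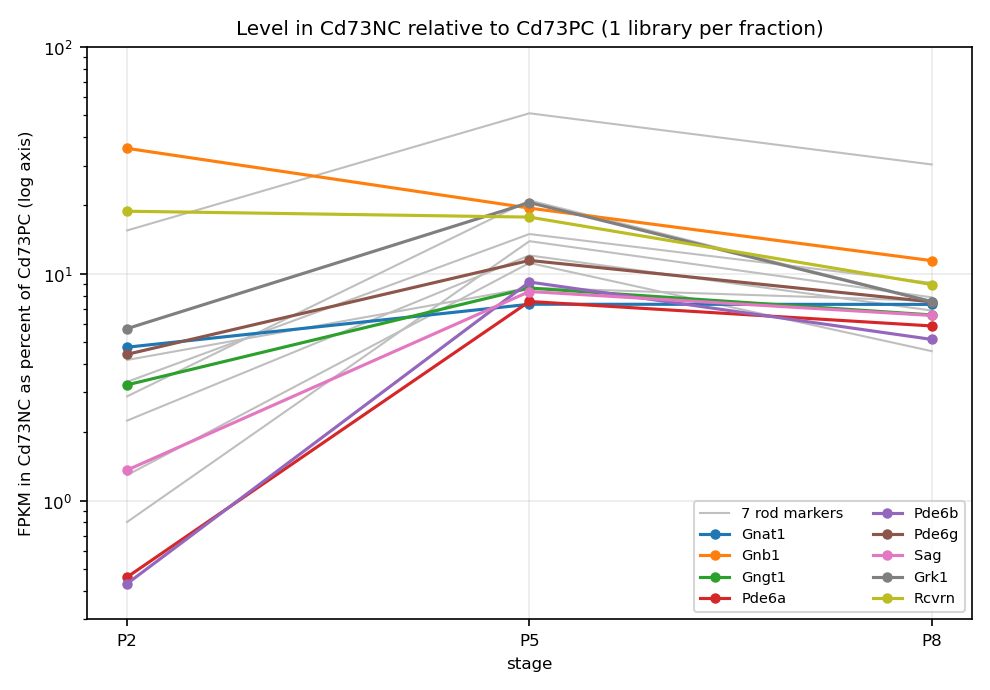
FPKM in Cd73NC as percent of FPKM in Cd73PC on a log axis at P2, P5, and P8, with 1 coloured line per gene and grey lines for 7 rod markers. The span of the 9 genes is widest at P2 (0.430% to 35.7%) and narrowest at P8 (5.13% to 11.4%).

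Within Cd73NC, 8 of 9 genes rose more than 1.5-fold from P2 to P5, against 13.1% of 12404 genes, with a median log2 difference of 2.43 (all genes, -0.06) and Gnb1 (0.26) within the limit. From P5 to P8, 2 of 9 did, against 14.1% of 12549 genes, with a median of 0.31 (all genes, -0.04). These were Gnat1 (log2 difference 2.11) and Pde6a (1.33), both of the late set. Gnat1 rose in Cd73NC 4.92-fold and in Cd73PC 4.93-fold over this step, and Pde6a 3.50-fold and 4.48-fold. Grk1 and Rcvrn, the other late genes, were at 1.12-fold and 1.29-fold in Cd73NC and at 3.06-fold and 2.57-fold in Cd73PC.

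The cones use their own versions of most of these proteins, and 6 of them were listed for comparison (Gnat2, Gnb3, Gngt2, Pde6c, Pde6h, and Arr3). Of those with an FPKM of at least 1, 2 of 4 at P2, 2 of 5 at P5, and 3 of 6 at P8 were more than 1.5-fold higher in Cd73PC (all genes, 14.5%, 12.3%, and 13%), and 1 was lower at P5 and at P8 (all genes, 27% and 31.3%). Gnat1 was at 0.628 of the level of Gnat2 in P2 Cd73PC, at 3.47 times it in P5, and at 16.7 times it in P8, while Gnat2 itself stayed at 21.9, 22.3, and 22.8 FPKM. Gngt1 was below Gngt2 in all 8 libraries, with ratios of 0.189, 0.307, and 0.928 in Cd73PC, where Gngt2 was at 1260, 1460, and 812 FPKM. Gngt2 shares 234 of its 1877 exon bases with Abi3 on the opposite strand, and the sources used here do not say that strand was used in counting. Pde6b exceeded Pde6c by 156-fold, 539-fold, and 677-fold in Cd73PC, and Sag exceeded Arr3 by 1066-fold, 554-fold, and 432-fold, with both cone genes under 10 FPKM.

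The genes that work beside the cascade were listed by role, with the cation channel, the cyclases and their calcium sensors, the exchanger, and the complex that switches transducin off. In Cd73PC, 10 of these 10 genes rose more than 1.5-fold between P2 and P5 and 8 between P5 and P8, against 5.92% and 5.94% of all genes tested. Their onset was also spread, with Gnb5 at E18, 5 genes at P2 (Cnga1, Cngb1, Gucy2e, Guca1a, and Rgs9), 3 at P5 (Gucy2f, Guca1b, and Rgs9bp), and the exchanger Slc24a1 at P8. The channel subunits Cnga1 (14.6%) and Cngb1 (19.1%) were past 10% at P2 together, while Rgs9 was at 31.6% and its membrane anchor Rgs9bp at 8.53%, close to the limit. Guca1a differed from the other 9 in the fractions, with 52.7 FPKM in Cd73NC and 43.0 in Cd73PC at P5.

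Of 6 chaperones, carriers, and other genes listed beside the cascade proteins, 5 were more than 1.5-fold higher in Cd73PC at each stage. This compares with 12.3% to 14.5% of all genes. The 5 include Rabgef1, which is neither a chaperone nor a carrier of these proteins. Pdc, phosducin, which binds transducin beta and gamma, was at 1935, 2439, and 2964 FPKM in Cd73PC and thus had 65.3% of its P8 level at P2. Aipl1, which phosphodiesterase needs to assemble, was at 24.7% and Unc119, a carrier of transducin alpha, at 51.9% of P8 at P2, so both were past 10% of the P8 level before Gnat1 and Pde6a were. Pde6d, Rabgef1, and Pdcl passed 10% of the P8 level at E15, and Ric8a was not analysed here. Of 11 other genes listed by a G protein beta or gamma symbol, 10, 10, and 11 reached the minimum FPKM of 1 at P2, P5, and P8. Among these, 2, 2, and 1 were more than 1.5-fold higher in Cd73PC, and 5, 4, and 7 were lower, beside the shares of all genes given above for each direction. The list includes the beta-like gene Gnb2l1.

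The genes whose profile was most like that of each cascade gene were taken by Pearson's r on log2(FPKM + 1) over the 8 libraries, among 8802 genes. The 8 points are the same libraries for all genes, and the contrast between Cd73PC and the other libraries enters every r. Sag had an r of 0.998 with both Unc119 and Rd3. Pde6g was closest to Prph2 (0.998), Plekhb1 (0.996), and Rom1 (0.995), and Pde6b to Cngb1 (0.997), Zbtb4 (0.997), and Rp1 (0.995). Gnat1 and Pde6a appeared in each other's closest 3 (r of 0.993), with Cacnb2 at 0.994 closest to Gnat1 and Hsbp1l1 at 0.996 closest to Pde6a. Grk1 was closest to Rtbdn (0.996), Gngt1 to Srprb (0.996), Gnb1 to Kbtbd4 (0.991), and Rcvrn to Zbtb7b (0.990). Gnat1 had an r of 0.886 with Gngt1 and 0.870 with Gnb1, its partners in transducin.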

How the data were processed

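The authors sequenced 36-base single-end reads from 8 libraries, aligned them to NCBI37/mm9, and deposited FPKM with lower and upper bounds per gene, which Cufflinks scales to transcript length and mapped fragments. The submitters' processing notes name CASAVA 1.8.2, bcl2fastq 1.8.4, TopHat2 2.0.8b, and Cufflinks 2.1.1. Counts and absolute depth were not analysed here. Of 23021 rows per table, 796 rows of small RNAs were left out, rows of 234 repeated symbols were summed, and 4 to 10 failed estimates per library were taken as missing, which left 21828 genes. Differences were taken on log2(FPKM + 1), which understates changes of low genes, over genes with an FPKM of at least 1 in either library, and a change was counted at more than 1.5-fold on FPKM + 1. The study used 1.5-fold as well and states no such addition. Percents and ratios used FPKM without a pseudocount. With 1 library per condition no test was run.

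The 9 genes and the lists of other genes were chosen with earlier results of these data known. Genes outside the lists were named by a fixed rule, the 3 with the highest Pearson's r to each of the 9 over 8 libraries among genes reaching an FPKM of 10, of which 1 is not reported here. The promoter sequences came from RefSeq (GRCm38.p6). Scripts were tested on simulated data (Python 3.11.15, numpy 2.4.6, pandas 2.3.3, matplotlib 3.10.9). Alternatives were other pseudocounts, thresholds, onset limits, and filters, upper-quartile scaling, quantile normalization, non-overlapping bounds, and all rows kept. The bipolar sum without Otx2 was added after seeing the data.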

Additional observations from a re-analysis of the deposited data

Results flagged for a closer look

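From P5 to P8, 3 of the 9 genes had differences of opposite sign in the fractions. There was 1 library behind each value, and the difference between the fractions was not tested. The share of all genes with opposite signs over this step was not computed, so the count has no baseline. Gnb1 went up by 0.56 in Cd73PC and its log2 difference in Cd73NC was -0.21. Pde6b had a log2 difference of 0.83 in Cd73PC and -0.0064 in Cd73NC, and Pde6g of 0.60 and -0.0020. The Cd73NC values of Pde6b and Pde6g lie close to 0 and turned to 0.042 and 0.047 with upper-quartile scaling, while that of Gnb1 kept its sign with upper-quartile scaling (-0.16) and quantile normalization (-0.15).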

How the results depend on the processing

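No paired analysis was possible because each stage had 1 library per fraction, hence 1 difference and no spread within a stage, and no library could be left out in turn. A fit that takes the 3 stages as replicates of the fractions was not run. Of the alternative values for the counts, medians, onsets, and ratios described, 83 moved by less than 1.5-fold and 3 by more. The number of genes that rose from P5 to P8 in Cd73PC was 4 with a threshold of 2-fold, the median percent in Cd73NC at P2 was 11.2% with a pseudocount of 1, and the number of genes past the onset limit by P2 was 8 with onset at 5%. Of the alternative values for single genes, 330 moved by less than that and 21 by more, of which 20 followed from the pseudocount in genes of low FPKM. In the other, Sag from P5 to P8 in Cd73PC had a log2 difference of 0 with quantile normalization, which by its construction gives the gene at rank 1 the same value in every library. Between P2 and P5, the direction of the Cd73NC percents of Pde6a and Gnat1 turned with a pseudocount of 1 (15.3% to 11.9% and 11.2% to 8.52%). Scaling moved the median log2 difference of all genes between the fractions from -0.14, -0.18, and -0.23 at P2, P5, and P8 to -0.04, 0.01, and 0.03 with quantile normalization, and the 9 genes stayed higher in Cd73PC. The absolute depth is unknown, so no detection limit can be given for values near 0, such as Pde6a in P2 Cd73NC.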
